A study of Mus musculus with 36 samples.

Results

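The comparison described here is the change between day 7 and day 28 of bile duct ligation, set against the same change under a diet with 3,5-diethoxycarbonyl-1,4-dihydrocollidine (DDC). It used 16 of the 36 liver libraries of the series, chosen by the group name in each column. These were 4 C57BL/6 mice 28 days after ligation (BDL28), 4 mice 7 days after it (BDL7), 4 mice after 28 days on 0.1% DDC by weight (DDC28) and 4 after 7 days on it (DDC7). A further 8 libraries, 4 of sham-operated mice (SHAM) and 4 of mice on control diet (CTLD), gave each model's control level. The labels of the controls carry no day, and 1 set per model was used for both days; different mice were sampled at each day. Messenger RNA was sequenced from its 3' end with molecular identifiers, and values are the deposited normalized counts. For each gene the tested quantity was (BDL28 minus BDL7) minus (DDC28 minus DDC7) on the log2(value + 1) scale, called the difference of day changes below. A positive difference means that the gene moved up more, or down less, after ligation than on DDC.

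Both procedures are mouse models of cholestasis, in which bile constituents build up in the liver. Ligation closes the common bile duct by surgery, so bile cannot leave the liver, and bile ducts proliferate with inflammation and portal scarring. DDC disturbs heme synthesis, and porphyrin plugs form in small ducts and injure them while the large ducts remain patent. The liver of both models is known for a ductular reaction, recruited myeloid cells, activated stellate cells that lay down collagen, and lower expression of bile acid uptake and synthesis genes in hepatocytes.

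The 16 libraries held 2378491 to 3450091 recovered reads each, with 17280 to 18623 genes detected, and 11960 genes reached 10 or more in 4 or more of the 16. Albumin (Alb, ENSMUSG00000029368) had 16740 normalized counts in the library labelled BDL28 replicate 1 and 13240, 15660 and 18160 in the other BDL28 livers, 14090 to 18300 in BDL7, 15650 to 19250 in DDC28 and 15490 to 21600 in DDC7, so the hepatocyte marker of the labelled tissue was present throughout. These are whole pieces of liver, in which fewer cells of a type and less RNA per cell cannot be told apart.

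One library went against its label. The library labelled BDL28 replicate 1 lay at a root mean square distance of 0.754 (log2) from the mean of the other 3 BDL28 livers, and at 0.499 from the mean of DDC28. Each of the other 15 libraries lay nearest to the mean of its own group. The gene Cyp2b10, a xenobiotic-inducible hepatic cytochrome, had 531 normalized counts in it and 14.7, 30.6 and 11.8 in the other BDL28 livers, against 20.9, 48.8, 37.9 and 32.1 in BDL7, while DDC28 had 688, 589.6, 1222 and 1099 and DDC7 1003, 972, 764 and 634. The library labelled BDL28 replicate 1 thus had a value outside the range of both ligation groups and just under that of DDC28. To place it by genes that day 28 did not choose, 24 genes were taken whose 4 DDC7 and 4 BDL7 libraries were separated by at least 1 on the log2 scale. In 21 of the 24 (87.5%) that library was nearer to DDC7 than to BDL7, as the 4 DDC28 livers were in 18 to 21, while the other 3 BDL28 livers were nearer to DDC7 in 10 to 13. Control livers were also nearer to DDC7, SHAM in 15 to 18 and CTLD in 16 to 17, so this count is not particular to livers on DDC. Among the 18 single values far from their group in this library were those of Mki67, Spp1, Slc10a1 and Nnmt. Some genes examined for this were named from results without this library, so the count is partly set by that choice. The labels were kept. The main counts are given with all 16 libraries and again without the library labelled BDL28 replicate 1. Some single genes and list counts are given from 1 of these fits only.

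**Figure D1:**
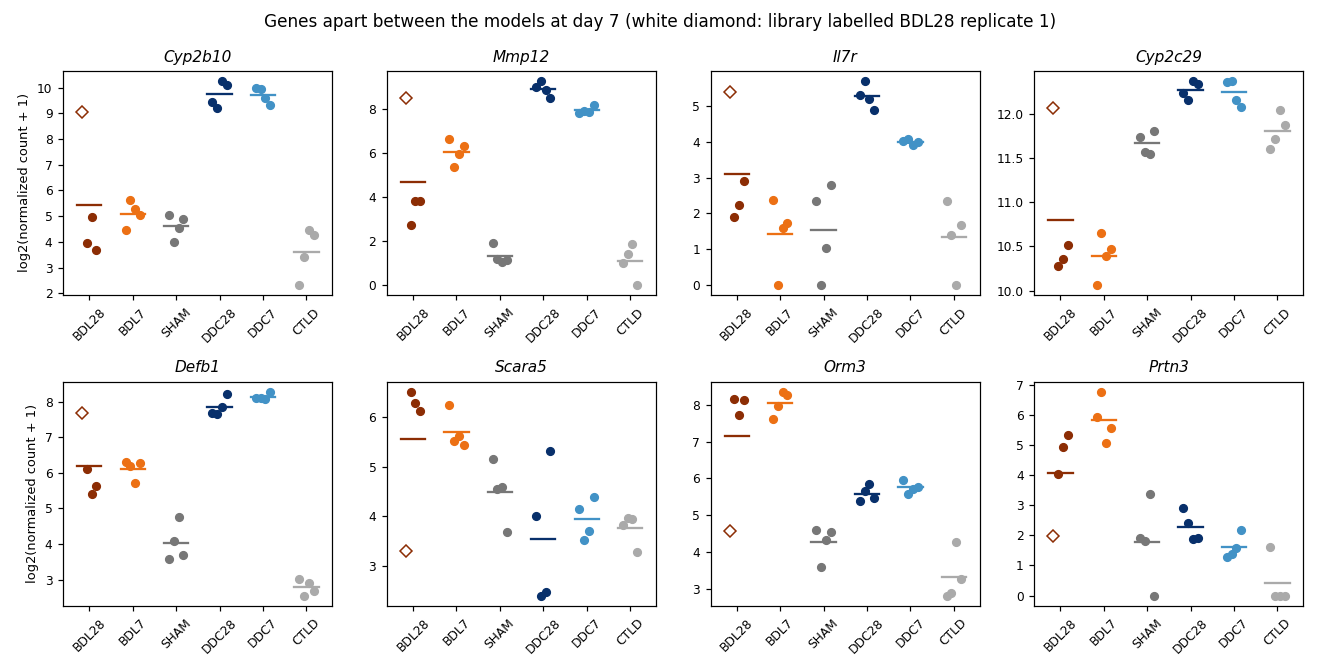
Normalized counts on the log2(value + 1) scale (y axis) of 8 genes that separated the models at day 7, in the 6 groups (x axis); points are livers, lines are group means, and the white diamond is the library labelled BDL28 replicate 1. In Cyp2b10 the diamond stands at 531 normalized counts, against 11.8 to 30.6 in the other BDL28 livers, and Mmp12 stands at 361 against 5.51 to 13.

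With all 16 libraries, 20 genes (0.167% of those tested) had a called higher difference of day changes and 32 (0.268%) a lower one, at a Benjamini-Hochberg adjusted p under 0.05 in limma. Unadjusted p was under 0.05 for 2194 genes. Without the library labelled BDL28 replicate 1 the calls were 596 higher (4.98%) and 909 lower (7.6%), which included all 52 of the first set with the same sign. Those 52 were 3.46% of the larger set. The shares of 4.98% and 7.6% are the level beside which the list counts without that library stand below. The calls of the 16 libraries also leaned on single livers elsewhere: leaving out 1 of the other 15 gave 2 to 24 higher and 6 to 45 lower calls. Of 25 called genes named below, 6 to 22 stayed called in those fits, and all 25 stayed called in each of the 20 fits without the library labelled BDL28 replicate 1. With a block by the number in the sample titles, 3 higher and 5 lower differences were called, and 7 of the 25 stayed called.

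The 2 parts of the difference were of unequal size. The ligation change had 1699 genes called higher (14.2%) and 1932 lower (16.2%), and without that library 2233 (18.7%) and 2602 (21.8%). The DDC change had 228 called higher (1.91%) and 316 lower (2.64%). These shares are the level beside which the list counts of day changes stand below. Both day changes were called for 357 genes in 1 direction and for 7 in opposite directions. Across the 11960 genes the ligation and DDC changes had Pearson's r = 0.595 and Spearman's rho = 0.449, as a description over genes, which are not independent. Of the 32 genes with a lower difference, 25 had a ligation fall larger than their DDC change, and the other 7 had a DDC increase larger than their ligation change. Of the 20 with a higher difference, 15 had a ligation rise larger than their DDC change. In either direction, 30.4% of all genes were called under ligation and 4.55% on DDC, and without that library 40.4% and 7.79% (3.67% higher and 4.12% lower on DDC). Against the controls, 47.5% of all genes were called in BDL28 (46.7% without that library), 53.4% in DDC28 (29.6% higher) and 47.7% in DDC7.

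**Figure D2:**
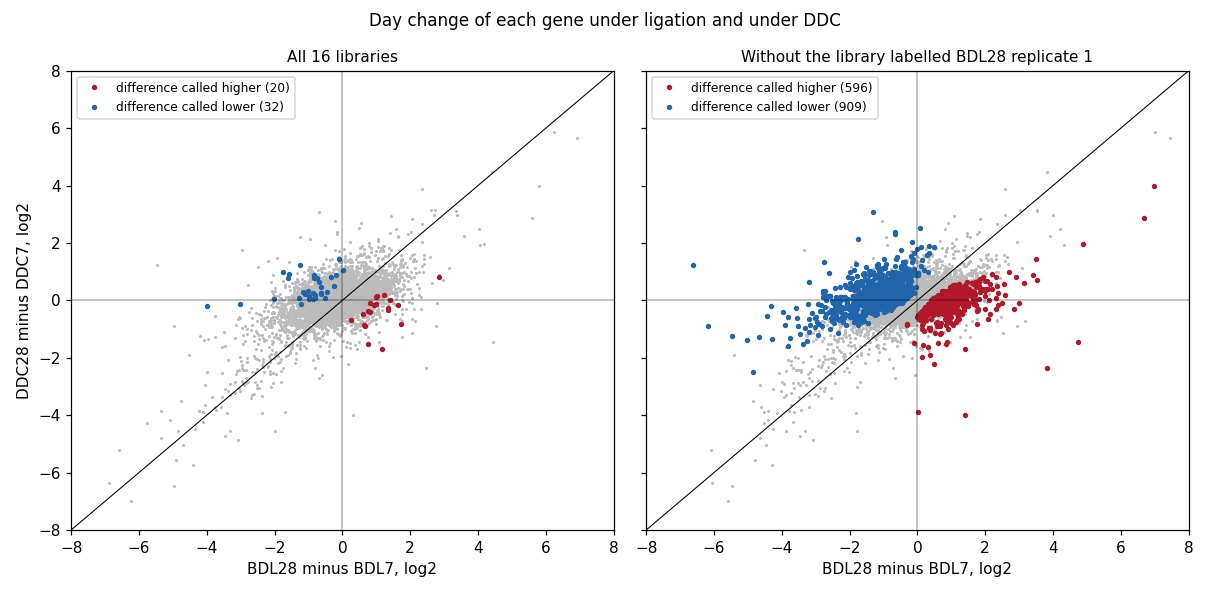
BDL28 minus BDL7 (x axis, log2) against DDC28 minus DDC7 (y axis, log2) for 11960 genes, with all 16 libraries (left) and without the library labelled BDL28 replicate 1 (right); the diagonal marks equal changes. Red points are called higher differences (20 left, 596 right) and blue points lower ones (32 left, 909 right).

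The serum amyloid genes Saa1 and Saa2 were high at day 7 of ligation and near or under sham levels in BDL28, while on DDC the days overlapped. Saa1, an acute-phase apolipoprotein secreted by hepatocytes, had 936 normalized counts in the library labelled BDL28 replicate 1 and 267, 789 and 716 in the other BDL28 livers, against 5086, 5180, 4667 and 4946 in BDL7. On DDC it had 969, 1067, 631 and 904 in DDC28 and 959.8, 992, 929.8 and 921 in DDC7, and controls had 928 to 1188 in SHAM and 294 to 817 in CTLD. The 4 BDL7 livers stood above all others, and the DDC days overlapped. Its difference of day changes was -2.90 ± 0.40, adjusted p = 0.00859 (without that library -3.10 ± 0.40, adjusted p = 0.000886).

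Its paralog Saa2 had 462 in the library labelled BDL28 replicate 1 and 75.3, 358 and 294 in the other BDL28 livers, against 4459, 3580, 3609 and 4329 in BDL7, 526, 592, 260.5 and 385 in DDC28 and 458, 544, 393 and 534 in DDC7. The difference was -3.82 ± 0.62, adjusted p = 0.0238 (without that library -4.12 ± 0.61, adjusted p = 0.00232). The 2 genes are near-identical copies, so reads could be divided between them. In Saa2 the BDL28 livers lay around SHAM (206 to 353), while both DDC days stayed above CTLD (103 to 215). Saa4, a further serum amyloid gene chosen after its values were seen, did not share the day 7 level: BDL7 minus SHAM was -0.26, adjusted p = 0.381, and BDL28 minus SHAM -2.21, adjusted p = 5.45e-08.

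Elf3, an epithelial transcription factor with lower levels, also fell under ligation but stayed above sham in BDL28. It had 23.6 in the library labelled BDL28 replicate 1 and 15.6, 13 and 22.5 in the other BDL28 livers, against 104, 70.2, 73.8 and 61.8 in BDL7, while DDC28 had 28.7, 16.4, 16.3 and 14.7 and DDC7 16.7, 15.98, 19.9 and 17.7. All BDL28 livers lay below all BDL7 livers, the DDC days overlapped, and both models stood above their controls (2.752 to 7.45 in SHAM, 0 to 3.92 in CTLD). The difference was -2.07 ± 0.33, adjusted p = 0.012 (without that library -2.19 ± 0.34, adjusted p = 0.000752).

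Lcn2, which encodes a secreted protein that binds bacterial iron carriers, turned in opposite directions. Under ligation it had 619 in the library labelled BDL28 replicate 1 and 356, 655 and 699.9 in the other BDL28 livers, against 1853, 1404, 1591 and 1875 in BDL7. On DDC it had 665, 557, 480.2 and 518 in DDC28, all above the 320.2, 237, 322 and 299 of DDC7. Lcn2 thus fell under ligation and rose on DDC. The ligation change was -1.56 ± 0.18, adjusted p = 6.61e-05, the DDC change 0.91 ± 0.18, adjusted p = 0.00799, and the difference -2.48 ± 0.25, adjusted p = 0.000111 (without that library -2.52 ± 0.27, adjusted p = 6.93e-05). The day 28 values of the models overlapped, above SHAM (3.56 to 15.8) and CTLD (1.01 to 4.86). Among the 23 acute-phase genes tested, 0 had a called higher difference (0.167% of all genes tested) and 3 a called lower one (0.268%). Without the library labelled BDL28 replicate 1 the counts were 5 (4.98% of all genes) and 7 (7.6%), and the medians were -0.24 with all libraries and -0.15 without it. Saa1, Saa2 and Lcn2 were the 3 lower calls, and the fibrinogen chains Fga, Fgb and Fgg were among the 5 higher ones.

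**Figure D3:**
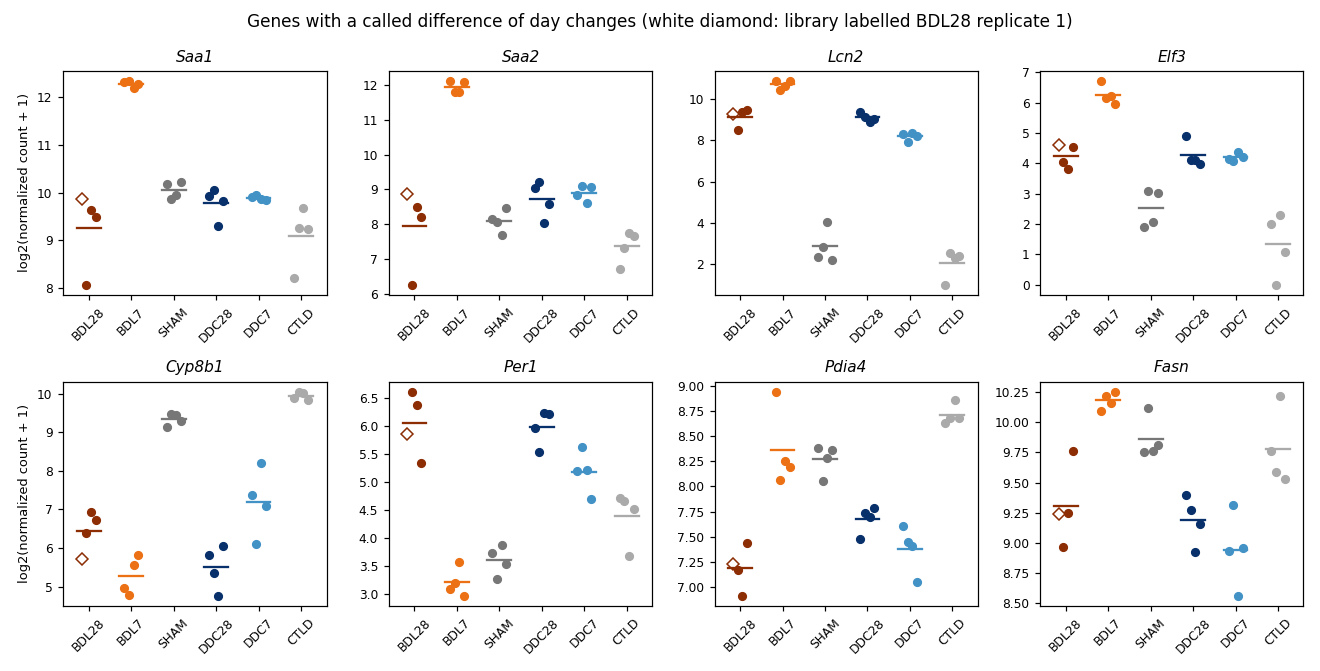
Normalized counts on the log2(value + 1) scale (y axis) of 8 genes with a called difference, in the 6 groups (x axis); points are livers, lines group means, and the white diamond is the library labelled BDL28 replicate 1. BDL7 stands at the top for Saa1 (4667 to 5180 normalized counts) and Per1 stands at 6.87 to 10.97 in BDL7, against 8.69 to 13.7 in SHAM.

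Most markers of recruited monocytes and macrophages fell under ligation once the library labelled BDL28 replicate 1 was left out, namely 15 of 19 (21.8% of all genes did), while 1 rose (18.7%). With it 8 fell and 1 rose, and on DDC 0 fell and 4 rose. Ccr2, the chemokine receptor of inflammatory monocytes, was chosen after its values were seen. It had 192 normalized counts in the library labelled BDL28 replicate 1 and 13.8, 59.4 and 57.9 in the other BDL28 livers, against 249, 140.4, 180.5 and 167 in BDL7, 156, 162, 104 and 90.9 in DDC28 and 81.3, 87.1, 101 and 90.7 in DDC7. The other 3 BDL28 livers lay below every BDL7 liver, and that library lay within BDL7. The difference was -2.15 ± 0.76, adjusted p = 0.178, and without that library -2.74 ± 0.57, adjusted p = 0.00988.

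Mmp12, the macrophage elastase, had 361 in the library labelled BDL28 replicate 1 and 5.51, 13 and 12.9 in the other BDL28 livers, against 97.8, 39.7, 60.8 and 77.8 in BDL7, while DDC28 had 508, 621, 468 and 365 and DDC7 228, 242, 231 and 292. On DDC every day 28 liver was above every day 7 liver, and under ligation the 3 others were below every day 7 liver. Without that library the difference was -3.58 ± 0.41, adjusted p = 0.000217, and with it -2.31 ± 1.30, adjusted p = 0.363. Ctss, the lysosomal protease of antigen-presenting cells, had 1265 there and 682, 701 and 893 in the other BDL28 livers, against 1225, 867, 743 and 809.8 in BDL7, 1355, 1294, 1475 and 1362 in DDC28 and 678, 648, 770.3 and 666 in DDC7. Its DDC increase was 0.99 ± 0.17, adjusted p = 0.00276, and its difference -1.05 ± 0.24, adjusted p = 0.0654 (without that library -1.24 ± 0.19, adjusted p = 0.00066).

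Over the 19 monocyte and macrophage markers tested, 0 had a called higher and 0 a called lower difference with all libraries, and 0 and 14 without the library labelled BDL28 replicate 1. All 19 were below 0 in both fits. The median was -1.05 with all libraries and -1.41 without that library, beside -0.01 over all genes tested with all libraries. Their summed level was 4252 in that library and 1845 to 2547 in the other BDL28 livers, against 3192 to 4769 in BDL7. DDC28 had 3670 to 4542, DDC7 2280 to 3230, SHAM 916.7 to 1179 and CTLD 917.4 to 1103. The marker sum thus lay below BDL7 in the 3 other BDL28 livers and above DDC7 in every DDC28 liver, and both day 28 groups stood above their controls. This sum follows its most abundant members and is no measure of macrophages. Cx3cr1 and Lgals3, a chemokine receptor and a galectin of macrophages chosen after their values were seen, gave differences of -2.66 ± 0.39, adjusted p = 0.00137 and -2.26 ± 0.40, adjusted p = 0.00361 without that library, and -2.15 ± 0.60, adjusted p = 0.116 and -1.80 ± 0.58, adjusted p = 0.144 with it. The scavenger receptor Marco and the lysosomal marker Cd68 gave -0.48 ± 0.66, adjusted p = 0.676 and -1.41 ± 0.26, adjusted p = 0.00272 without it.

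Among genes of lipid-associated macrophages, the scar-linked phagocytes marked by Trem2 and Gpnmb, some were higher at day 28 of DDC. Of 16 tested, 4 rose (1.91% of all genes did) and 0 fell (2.64%) on DDC: Trem2, Gpnmb, Lpl and Cd36. Trem2, a lipid-sensing receptor, had 27.6 in the library labelled BDL28 replicate 1 and 15.6, 13 and 22.5 in the other BDL28 livers, against 15.04, 12.2, 18.9 and 16.03 in BDL7, with 54.5, 44.1, 43.4 and 33.1 in DDC28 and 15.2, 23.97, 16.9 and 18.4 in DDC7. The DDC increase was 1.19 ± 0.24, adjusted p = 0.0089, and the ligation change was 0.28 ± 0.24, adjusted p = 0.398. Gpnmb, a lysosomal glycoprotein, had 548 in that library and 77.2, 99.4 and 238 in the other BDL28 livers, against 89.4, 75.3, 91.7 and 90.1 in BDL7, 769.9, 780.5, 744 and 546 in DDC28 and 186, 185, 177 and 229 in DDC7. Without that library its difference was -1.36 ± 0.38, adjusted p = 0.0316, and with it -0.82 ± 0.62, adjusted p = 0.505. Of the 16 list members, 1 had a called higher and 9 a called lower difference without that library, and 0 and 0 did with it.

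The neutrophil genes S100a8 and S100a9, subunits of calprotectin, were also higher at day 28 of DDC. S100a8 had 287 in the library labelled BDL28 replicate 1 and 139.7, 153 and 120.0 in the other BDL28 livers, against 194, 118, 178 and 149 in BDL7, while DDC28 had 202, 203, 248 and 253 and DDC7 55.9, 64.7, 109.6 and 86.4. The ligation days overlapped, and every DDC28 liver was above every DDC7 liver. Its difference was -1.47 ± 0.35, adjusted p = 0.0865, and -1.74 ± 0.27, adjusted p = 0.00111 without that library. Only 6 of the 15 neutrophil genes were tested. Of the 6, 4 rose on DDC (1.91% of all genes did) and 0 fell (2.64%). S100a9 had 134, 128, 124 and 110.2 in DDC28 and 46.5, 30.4, 75.7 and 49.6 in DDC7, and 148 in that library and 75.3, 76.2 and 54.7 in the other BDL28 livers, against 113, 61.03, 98.7 and 89.3 in BDL7.

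Cxcl5, a neutrophil-attracting chemokine, had 410.3 in the library labelled BDL28 replicate 1 and 11.9, 89.2 and 70.7 in the other BDL28 livers, against 190.5, 64.1, 216 and 179 in BDL7, 364, 263, 195 and 264 in DDC28 and 31.2, 43.95, 99.7 and 92.1 in DDC7. Without that library its difference was -3.90 ± 0.92, adjusted p = 0.0194, and with it -3.09 ± 1.15, adjusted p = 0.197. Cxcl10, the interferon-induced chemokine, had 26.6 in that library and 0, 7.43 and 7.50 in the other BDL28 livers, against 155, 86.5, 76.8 and 62.6 in BDL7, 57.4, 55.5, 46.1 and 24.8 in DDC28 and 83.5, 50.3, 67.8 and 61.6 in DDC7. Its difference was -3.89 ± 0.87, adjusted p = 0.0149 without that library. Ccl2, the monocyte chemoattractant, did not pass in either fit (-1.52 ± 0.66, adjusted p = 0.152 without that library). Of 17 chemokine ligands, 1 had a called higher and 4 a called lower difference without it (4.98% and 7.6% of all genes). With it 0 and 0 did.

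Among genes of resident Kupffer cells, Cd5l passed the test without that library. Cd5l, a macrophage-secreted scavenger protein, had 856 in the library labelled BDL28 replicate 1 and 281, 274 and 447 in the other BDL28 livers, against 1294, 1081, 891 and 910.5 in BDL7, 895, 1018, 739 and 659.5 in DDC28 and 762, 628, 1060 and 898 in DDC7. The difference was -1.30 ± 0.42, adjusted p = 0.144, and -1.65 ± 0.29, adjusted p = 0.00272 without that library. Clec4f, a lectin restricted to Kupffer cells, fell under ligation (-1.49 ± 0.32, adjusted p = 0.00353), with no called difference (-1.06 ± 0.43, adjusted p = 0.117 without that library). In the list of 17 Kupffer cell markers, 1 higher and 2 lower differences were called without it (4.98% and 7.6% of all genes were), a share near that of all genes, and 0 and 0 with it.

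The stellate cell and matrix genes Lrat, Lum, Col1a2 and Col14a1 fell under ligation without the library labelled BDL28 replicate 1, Lrat and Col14a1 to below sham, while that library stood above every BDL7 liver. Lrat is the retinol-esterifying enzyme that marks stellate cells. It had 129.9 normalized counts in the library labelled BDL28 replicate 1 and 13.8, 12.1 and 21.4 in the other BDL28 livers, against 114, 111, 92.7 and 114 in BDL7, 116, 86.9, 98.6 and 98.3 in DDC28 and 66.8, 81.5, 81.7 and 89.2 in DDC7. SHAM had 65.8 to 110.5, so those 3 livers also stood below sham. Its difference was -2.30 ± 0.73, adjusted p = 0.144, and -3.05 ± 0.23, adjusted p = 4.75e-07 without that library.

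Lum, a keratan sulfate proteoglycan of collagen fibrils, had 150.5 in the library labelled BDL28 replicate 1 and 15.6, 21.4 and 26.8 in the other BDL28 livers, against 112, 83.4, 83.8 and 98.5 in BDL7, 114, 54.8, 67.8 and 95.5 in DDC28 and 50.8, 62.3, 56.8 and 58.8 in DDC7. Here the 3 other livers lay in the range of SHAM (13.04 to 27.5). Its difference was -1.90 ± 0.71, adjusted p = 0.193, and -2.60 ± 0.29, adjusted p = 3.38e-05 without that library. Lum, Col1a2 and Col14a1 were chosen after their values were seen.

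Col1a2, a chain of type I collagen, had 543 in that library and 61.6, 99.4 and 85.7 in the other BDL28 livers, against 452, 256, 393 and 512 in BDL7, 307, 159.5, 177 and 302 in DDC28 and 186, 196, 199 and 268 in DDC7. The difference was -1.69 ± 0.75, adjusted p = 0.257, and -2.37 ± 0.38, adjusted p = 0.00208 without that library. Col14a1, a fibril-associated collagen, had 197 in that library and 27.9 to 34.9 in the other 3, against 118 to 162 in BDL7, with 129 to 164 in DDC28 and 118 to 174 in DDC7. Its difference without that library was -2.25 ± 0.20, adjusted p = 3.97e-06. Col1a1, the partner chain, did not pass (-1.46 ± 0.51, adjusted p = 0.083 without that library), and Acta2, the actin of activated stellate cells, did not either (-1.45 ± 0.58, adjusted p = 0.113). Timp1, an inhibitor of matrix proteases, passed without that library (-1.89 ± 0.53, adjusted p = 0.0258) and not with it (-1.41 ± 0.65, adjusted p = 0.26).

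Of the 21 stellate and fibroblast markers, 0 higher and 0 lower differences were called with all libraries, and 0 and 13 without the library labelled BDL28 replicate 1. The medians were -1.16 and -1.46. The marker sum was 7352 in that library and 4444 to 4868 in the other BDL28 livers, against 6085 to 6711 in BDL7. It was 5565 to 7176 in DDC28, 4968 to 5808 in DDC7, 4357 to 4880 in SHAM and 4283 to 4576 in CTLD. In the 3 other BDL28 livers the sum lay in the range of SHAM. It does not show each member: without that library 5 markers were called higher and 5 lower in BDL28 than in SHAM. Over all genes 24.8% and 21.9% were. Of 17 collagens, 1 had a called higher and 8 a called lower difference without that library (4.98% and 7.6% of all genes). The higher was Col18a1, which encodes a basement membrane collagen also made by hepatocytes (0.46 ± 0.12, adjusted p = 0.0168). Matrix proteases, inhibitors and crosslinkers had 0 higher and 9 lower calls of 21, with Loxl2, a collagen crosslinker, at -2.05 ± 0.29, adjusted p = 0.000352.

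**Figure D4:**
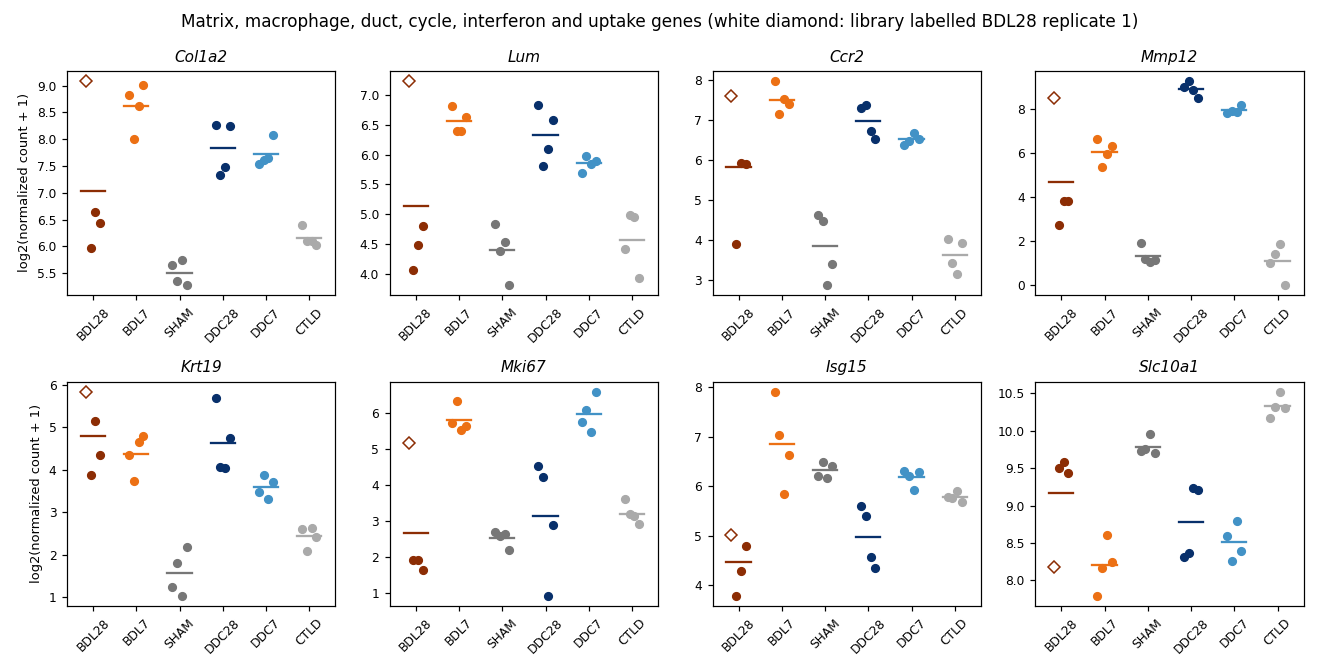
Normalized counts on the log2(value + 1) scale (y axis) of 8 genes of matrix, macrophages, ducts, cell division, interferon response and bile acid uptake, in the 6 groups (x axis); points are livers, lines group means, and the white diamond is the library labelled BDL28 replicate 1. Lum stands at 150.5 normalized counts in the diamond and 15.6 to 26.8 in the other BDL28 livers, against 83.4 to 112 in BDL7.

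The summed level of duct markers stood above controls at both days in both models. Krt19, a keratin of bile duct cells, had 56.1 in the library labelled BDL28 replicate 1 and 13.8, 34.4 and 19.3 in the other BDL28 livers, against 19.2, 12.2, 23.9 and 26.7 in BDL7, 50.2, 15.7, 15.4 and 25.7 in DDC28, 10.2, 13.6, 8.97 and 12.04 in DDC7, 1.05 to 3.56 in SHAM and 3.24 to 5.22 in CTLD. Neither day change passed the test. Sox9, a transcription factor of duct cells, gave -0.49 ± 0.42, adjusted p = 0.56 for the difference. Spp1, which encodes osteopontin, had 2118 in that library and 629, 697 and 599 in the other BDL28 livers, against 2273, 1527, 1728 and 1740 in BDL7, 1714, 1253, 888 and 1247 in DDC28 and 929, 1330, 1305 and 1300 in DDC7. Its difference was -1.53 ± 0.25, adjusted p = 0.0016 without that library and -1.10 ± 0.47, adjusted p = 0.237 with it. Prom1, a membrane protein of duct and progenitor cells, had 105, 102, 63.3 and 54.2 in DDC28 and 12.3, 13.6, 11.96 and 19.8 in DDC7, an increase of 2.38 ± 0.48, adjusted p = 0.0114, and 124 in that library and 15.6, 41.8 and 35.4 in the other BDL28 livers, against 40.9, 25.4, 62.8 and 69.5 in BDL7. Of 26 duct markers tested, 5 rose and 0 fell on DDC (1.91% and 2.64% of all genes did), with a median DDC change of 0.47. The difference was called higher for 1 and lower for 5 without that library (4.98% and 7.6% of all genes), and for 0 and 0 with it. The marker sum was 14412 in it and 10973 to 11285 in the other BDL28 livers, against 14530 to 16699 in BDL7, and 10121 to 13092 in DDC28, against 11543 to 13540 in DDC7, with 8134 to 8482 in SHAM and 9426 to 9537 in CTLD. The sum follows the most abundant members, and 5 of the 28 summed were at 0 in all SHAM livers. It is thus no measure of duct cells and does not show the direction of most members.

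Cell cycle genes fell in both models, with 32 of 33 day changes below 0 under ligation and 32 on DDC, called or not. The median changes were -2.201 and -2.285. Mki67, expressed in cycling cells, had 35.4 in the library labelled BDL28 replicate 1 and 2.76, 2.79 and 2.14 in the other BDL28 livers, against 52.6, 80.4, 45.9 and 49.6 in BDL7, and 22.2, 17.8, 0.904 and 6.43 in DDC28 against 53.7, 67.9, 43.9 and 96.3 in DDC7. In both models every day 28 liver lay below every day 7 liver. The ligation change was -3.16 ± 0.80, adjusted p = 0.00986, the DDC change -2.85 ± 0.80, adjusted p = 0.0613, and the difference -0.31 ± 1.13, adjusted p = 0.908. Of 33 cell cycle genes, 0 rose (14.2% of all genes did) and 32 fell (16.2%) under ligation, 0 rose and 17 fell on DDC, and 0 higher and 0 lower differences were called. Without that library 0 and 5 were, with a median of -0.65, and these were Mcm2, Mcm3, Mcm5, Top2a and Ccnd1. Top2a, the topoisomerase of dividing cells, had 69.8 in that library and 6.43, 4.64 and 5.36 in the other BDL28 livers, against 175, 228, 169.5 and 176 in BDL7, 83.2, 54.1, 13.6 and 23.9 in DDC28 and 152, 231, 168 and 290.4 in DDC7, a difference of -2.35 ± 0.63, adjusted p = 0.0305. Its BDL28 values other than in that library lay below SHAM (13.04 to 24.8). Mcm3, a subunit of the replicative helicase, had 41.3 in that library and 27.6, 19.5 and 16.1 in the other BDL28 livers, against 64.3, 114, 55.8 and 84.7 in BDL7, 54.5, 59.1, 22.6 and 33.1 in DDC28 and 52.3, 45.5, 38.9 and 35.4 in DDC7, a difference of -1.75 ± 0.41, adjusted p = 0.0121. Ccnd1, the cyclin of cell cycle entry, had 945 in that library and 68.9, 115 and 464 in the other BDL28 livers, against 832, 1132, 1151 and 801 in BDL7, while DDC28 had 1019, 1293, 603 and 642 and DDC7 853, 864, 724 and 630.3. Its difference was -2.78 ± 0.70, adjusted p = 0.0261 without that library. The DDC days overlapped for both Mcm3 and Ccnd1.

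Interferon-response genes fell between the days of ligation, and fewer passed the test on DDC. Isg15, a ubiquitin-like interferon product, had 31.5 in the library labelled BDL28 replicate 1 and 12.9, 18.6 and 26.8 in the other BDL28 livers, against 239.8, 130.2, 56.8 and 98.5 in BDL7, and 47.3, 41.3, 22.6 and 19.3 in DDC28 against 78.4, 72.7, 59.8 and 77.2 in DDC7. SHAM had 70.5 to 89.4 and CTLD 50.2 to 58.7, so both day 28 groups stood below their controls. The ligation change was -2.38 ± 0.38, adjusted p = 0.000606, the DDC change -1.21 ± 0.38, adjusted p = 0.0859, and the difference -1.18 ± 0.54, adjusted p = 0.261. In the list of 30 type I interferon genes, 0 rose and 29 fell under ligation (14.2% and 16.2% of all genes did). On DDC 0 rose and 4 fell (1.91% and 2.64% of all genes did). The difference was called for 0 and 0 with all libraries and for 0 higher and 7 lower without that library, where Ifit3, an antiviral protein that binds viral RNA, gave -2.38 ± 0.55, adjusted p = 0.0098 and was chosen after its values were seen. Ifit1, of the same family, fell in both (-2.48 ± 0.34, adjusted p = 0.000171 under ligation, -1.51 ± 0.34, adjusted p = 0.0172 on DDC). The BDL7 livers were spread for this list, with Isg15 at 56.8 to 239.8. Against SHAM (21.4% of all genes were higher in BDL7, and 22.2% lower in BDL28), 10 of the 30 were higher in BDL7 and 21 lower in BDL28. Scaled to the total count these were 15 and 16.

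The promoter of Isg15 is shown because 29 of these 30 genes fell together under ligation and many carry the interferon-stimulated response element. The letters GAAA, any 2 bases and GAAA were searched on both strands in windows from 250 bases before to 50 bases after each RefSeq gene start. They were found in 12 of the 20 listed genes with a window (60%) and in 339 of 8970 tested genes with a window (3.78%). Counted by window rather than by gene, they were in 3.44% of all 32851 windows. The window of Isg15 (GRCm38.p6, minus strand, chr4:156200769-156201068) is given 5' to 3', with 3 overlapping matches in capitals, and a match is a description only.
Isg15: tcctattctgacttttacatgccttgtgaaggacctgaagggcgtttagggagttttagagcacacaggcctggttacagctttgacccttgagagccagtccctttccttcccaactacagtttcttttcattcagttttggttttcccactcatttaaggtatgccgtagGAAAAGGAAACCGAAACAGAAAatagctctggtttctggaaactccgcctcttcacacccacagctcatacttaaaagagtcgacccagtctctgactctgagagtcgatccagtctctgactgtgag

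Interferon-inducible GTPases and antigen presentation genes also fell under ligation. Gbp2, a guanylate-binding protein, had 24.6 in the library labelled BDL28 replicate 1 and 11.03, 5.57 and 10.7 in the other BDL28 livers, against 113, 50.9, 26.9 and 28.2 in BDL7, 22.2, 17.1, 11.8 and 14.7 in DDC28 and 26.9, 27.2, 22.9 and 22.7 in DDC7. Its difference was -1.32 ± 0.58, adjusted p = 0.241, and -1.67 ± 0.52, adjusted p = 0.0419 without that library. H2-Aa, a chain of the class II complex, had 173 in that library and 17.5, 29.7 and 25.7 in the other BDL28 livers, against 243, 179, 111 and 151 in BDL7, 171, 105, 78.7 and 127 in DDC28 and 131, 126, 154 and 142 in DDC7. The difference was -2.49 ± 0.36, adjusted p = 0.000862 without that library and -1.79 ± 0.75, adjusted p = 0.236 with it. Of 16 GTPases, 0 rose and 15 fell under ligation (14.2% and 16.2% of all genes did). On DDC 0 rose and 0 fell (1.91% and 2.64% of all genes did). Without that library 0 higher and 4 lower differences were called (4.98% and 7.6% of all genes). Of 21 antigen presentation genes the counts were 0 and 16 under ligation, 0 and 3 on DDC, and 0 higher and 6 lower for the difference without that library.

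Chaperones of the endoplasmic reticulum, which fold secreted proteins, were below controls on DDC at both days, and more of them were below sham at day 28 of ligation than at day 7. Pdia4, a disulfide isomerase, had 149 in the library labelled BDL28 replicate 1 and 143, 119.8 and 173 in the other BDL28 livers, against 490.4, 266, 304 and 291 in BDL7. DDC28 had 177, 212, 206 and 219.5, DDC7 195, 173, 168 and 132, SHAM 266 to 333 and CTLD 394 to 464. BDL7 overlapped SHAM, all BDL28 livers were lower, and DDC was under its controls from day 7. The difference was -1.47 ± 0.24, adjusted p = 0.012 (without that library -1.48 ± 0.25, adjusted p = 0.0016). Pdia3, another isomerase, gave -0.87 ± 0.18, adjusted p = 0.0447 (without that library -0.88 ± 0.19, adjusted p = 0.00547). Hspa5, the chaperone also called BiP, fell under ligation (-0.92 ± 0.18, adjusted p = 0.00139) with a difference of -0.50 ± 0.25, adjusted p = 0.293 that did not pass. Of the 20 chaperones, 1 (Herpud1) rose and 16 fell under ligation (14.2% and 16.2% of all genes did). On DDC 0 rose and 0 fell (1.91% and 2.64% of all genes did). With all libraries 0 higher and 2 lower differences were called (0 and 6 without that library). Against SHAM, 19 were lower in BDL28 (22.2% of all genes were) and 8 in BDL7 (18.3%). Against CTLD, 20 were lower in DDC28 (23.8% of all genes were) and 20 in DDC7 (21.2%). Effects against controls depended on the scaling: scaled to the total count, the median of all genes was 0.34 in BDL7, 0.31 in BDL28, 0.40 in DDC7 and 0.41 in DDC28, against 0.02, 0.05, 0.06 and 0.06 as deposited. So scaled, 17 chaperones were lower in BDL28, 16 in DDC28 and 16 in DDC7. In BDL7 the direction did not hold, with 1 higher and 1 lower so scaled and 4 higher and 1 lower after quantile normalization. Scaled to the total count, the calls over all genes were 4857 higher and 838 lower in BDL7, as deposited 2563 and 2183.

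The endoplasmic reticulum stress element, CCAAT and CCACG spaced by 9 bases, is a known site of the unfolded protein response. Searched on both strands of the same windows, it was found in 8 of 18 chaperones with a window (44.4%), against 16 of 8970 tested genes (0.178%) and 0.119% of all windows. Pdia4 and Pdia3, whose differences were called with all libraries, were not among these 8, and a match is a description only. The promoters of Hspa5, Hsp90b1 and Pdia6, all members of the list, are shown with each match in capitals; Hsp90b1 has 2, at -212 and -107 bases from the gene start. They are from RefSeq, GRCm38.p6: Hspa5 at chr2:34771840-34772139 (plus strand), Hsp90b1 at chr10:86705395-86705694 (minus strand) and Pdia6 at chr12:17266339-17266638 (plus strand).
Hspa5: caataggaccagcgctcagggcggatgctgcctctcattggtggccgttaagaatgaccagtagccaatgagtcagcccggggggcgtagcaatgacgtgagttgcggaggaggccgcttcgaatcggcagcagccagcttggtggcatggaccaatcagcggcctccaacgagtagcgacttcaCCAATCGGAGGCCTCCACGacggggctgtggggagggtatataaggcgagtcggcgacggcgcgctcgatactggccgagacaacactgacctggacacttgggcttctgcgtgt
Hsp90b1: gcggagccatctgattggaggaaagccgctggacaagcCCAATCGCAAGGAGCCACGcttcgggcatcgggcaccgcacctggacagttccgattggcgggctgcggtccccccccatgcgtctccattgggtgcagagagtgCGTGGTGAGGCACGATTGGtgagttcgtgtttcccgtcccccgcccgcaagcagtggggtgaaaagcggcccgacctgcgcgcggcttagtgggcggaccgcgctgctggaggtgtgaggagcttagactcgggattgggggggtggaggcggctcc
Pdia6: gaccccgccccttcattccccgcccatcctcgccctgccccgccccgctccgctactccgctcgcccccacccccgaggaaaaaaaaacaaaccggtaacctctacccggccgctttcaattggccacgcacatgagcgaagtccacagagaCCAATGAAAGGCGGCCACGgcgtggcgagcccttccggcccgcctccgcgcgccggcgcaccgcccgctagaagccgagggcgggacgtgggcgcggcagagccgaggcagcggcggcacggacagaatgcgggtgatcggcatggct

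Of 18 fatty acid synthesis genes, 11 fell between the days of ligation, and 0 fell on DDC. Fasn, fatty acid synthase, had 602 in the library labelled BDL28 replicate 1 and 498, 607 and 867 in the other BDL28 livers, against 1093, 1190, 1143 and 1221 in BDL7, 672, 616, 486 and 570.4 in DDC28 and 488, 634, 377 and 495 in DDC7. SHAM had 861 to 1113 and CTLD 739 to 1190. Every BDL28 liver lay below every BDL7 liver, and the DDC days overlapped. The difference was -1.13 ± 0.22, adjusted p = 0.0394 (without that library -1.10 ± 0.23, adjusted p = 0.00681). Gpam, which makes the first step of triglyceride synthesis, gave -1.33 ± 0.24, adjusted p = 0.0272. Srebf1, the transcription factor of lipogenesis, came to the same sign another way. Its DDC increase was 1.05 ± 0.14, adjusted p = 0.000458, its ligation change 0.03 ± 0.14, adjusted p = 0.9, and the difference -1.02 ± 0.20, adjusted p = 0.0394. It had 104.8 to 141.5 in DDC7, under every CTLD liver (229.1 to 331.4), and 249.2 to 294.8 in DDC28, within CTLD. Under ligation it stood above SHAM (137.6 to 160.1) at both days, with 290.7 to 359.9 in BDL7 and 237.1 to 395.5 in BDL28. Scd2, a desaturase, had 132 in that library and 51.5, 91.9 and 107 in the other BDL28 livers, against 193, 165, 149 and 151 in BDL7, and 119, 79.05, 84.1 and 64.3 in DDC28, above all of the 41.4, 49.5, 39.9 and 53.1 of DDC7, a difference of -1.72 ± 0.32, adjusted p = 0.0331. Of 18 genes of the list, 0 rose and 11 fell under ligation (14.2% and 16.2% of all genes did). On DDC 2 rose and 0 fell (1.91% and 2.64% of all genes did). With all libraries 0 higher and 3 lower differences were called (0 and 7 without that library). The 3 were Fasn, Gpam and Srebf1. Scd1, the main hepatic desaturase, fell under ligation (-1.16 ± 0.28, adjusted p = 0.0063) with a difference of -1.19 ± 0.43, adjusted p = 0.0862 without that library.

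In bile acid synthesis the called gene was Cyp8b1, the sterol hydroxylase of the cholic acid branch. It had 51.2 in the library labelled BDL28 replicate 1 and 82.7, 122 and 105 in the other BDL28 livers, against 30.1, 26.4, 45.9 and 55.7 in BDL7, and 55.2, 39.9, 26.2 and 65.2 in DDC28 against 164, 67.9, 294 and 136 in DDC7. SHAM had 563 to 709.9 and CTLD 912 to 1064. It rose under ligation (1.16 ± 0.41, adjusted p = 0.0445) and fell on DDC (-1.70 ± 0.41, adjusted p = 0.0297), with a difference of 2.86 ± 0.58, adjusted p = 0.0472 (without that library 3.10 ± 0.60, adjusted p = 0.00651). Every BDL28 and DDC28 liver lay under every control liver. Cyp7a1, the rate-limiting enzyme, gave 0.45 ± 0.79, adjusted p = 0.79. Of 16 genes, 1 higher and 0 lower differences were called with all libraries. Without that library 5 and 2 were (4.98% and 7.6% of all genes), among them Baat, which conjugates bile acids to taurine (0.76 ± 0.15, adjusted p = 0.00312).

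The uptake transporter Slc10a1, which imports conjugated bile acids, rose between the days of ligation. It had 287 in the library labelled BDL28 replicate 1 and 725, 766 and 689 in the other BDL28 livers, against 221, 286, 389.9 and 302 in BDL7, 315, 329, 599.6 and 589 in DDC28, 386, 306, 442 and 336 in DDC7, 829 to 989 in SHAM and 1156 to 1469 in CTLD. The 3 other livers lay between BDL7 and SHAM, and that library lay within BDL7. On DDC, DDC28 replicates 3 and 4 (599.6 and 589) stood above every DDC7 liver, and replicates 1 and 2 (315 and 329) did not. The ligation increase was 0.97 ± 0.30, adjusted p = 0.0271, and the difference 1.04 ± 0.32, adjusted p = 0.0488 without that library and 0.70 ± 0.43, adjusted p = 0.403 with it. Of 7 uptake transporters, 2 higher and 1 lower differences were called without it (4.98% and 7.6% of all genes) and 0 and 0 with it. Slco1a1, an organic anion carrier, had 0 in that library and 0.919, 2.79 and 1.07 in the other BDL28 livers, against 13.4, 21.4, 1.99 and 4.58 in BDL7 and 1443 to 1591 in SHAM, with 0, 9.26, 1.81 and 5.51 in DDC28 and 70.4, 31.96, 14.9 and 21.2 in DDC7. Its difference was 0.91 ± 1.04, adjusted p = 0.669. Abcb11, the canalicular bile salt pump, gave -0.38 ± 0.37, adjusted p = 0.611, and of 10 canalicular exporters 0 and 0 had a called difference in either fit. Abcc4, a basolateral exporter, had 258, 276, 193 and 195 in DDC28 against 50.1, 55.9, 55.8 and 87.1 in DDC7, an increase of 1.89 ± 0.36, adjusted p = 0.00874. It had 206 in that library and 84.5, 52 and 45.02 in the other BDL28 livers, against 35.1, 43.7, 53.8 and 54.95 in BDL7, and the difference was -1.56 ± 0.31, adjusted p = 0.00417 without it.

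Genes of the oxidative stress response and of heme had 0 called differences with all libraries. Nqo1, an NRF2 target that reduces quinones, had 115 in the library labelled BDL28 replicate 1 and 135, 117 and 145 in the other BDL28 livers, against 42.6, 60.01, 73.8 and 46.6 in BDL7, 142, 122, 169 and 122 in DDC28 and 89.3, 86.3, 116 and 105 in DDC7. The ligation increase was 1.21 ± 0.16, adjusted p = 0.00013, the DDC change 0.48 ± 0.16, adjusted p = 0.102, and the difference 0.78 ± 0.24, adjusted p = 0.0365 without that library. Of 20 NRF2 targets 1 higher and 3 lower differences were called there (4.98% and 7.6% of all genes), and 0 and 0 with all libraries. Alas1 and Fech, the first and last enzymes of heme synthesis, gave differences of 0.48 ± 0.19, adjusted p = 0.211 and 0.24 ± 0.16, adjusted p = 0.432, and Hmox1, which degrades heme, 0.20 ± 0.21, adjusted p = 0.65. Gsta1, a glutathione transferase, gave -0.67 ± 0.84, adjusted p = 0.71, the metallothionein Mt2 0.38 ± 0.45, adjusted p = 0.681, and the cytochromes Cyp3a11 and Cyp4a14 0.21 ± 0.22, adjusted p = 0.639 and 0.90 ± 0.89, adjusted p = 0.623. Hamp, the iron hormone hepcidin, gave 1.11 ± 0.33, adjusted p = 0.043 without that library and 0.85 ± 0.38, adjusted p = 0.251 with it. Of 16 genes of heme synthesis and breakdown, 0 higher and 1 lower differences were called without that library and 0 and 0 with it.

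Clock genes differed by member. Per1, a core repressor of the circadian clock, had 57.1 in the library labelled BDL28 replicate 1 and 96.5, 81.7 and 39.7 in the other BDL28 livers, against 7.52, 8.14, 10.97 and 6.87 in BDL7, 60.9, 45.6, 74.2 and 72.6 in DDC28 and 35.6, 47.9, 35.9 and 24.8 in DDC7. BDL7 overlapped SHAM (8.69 to 13.7), and all 4 BDL28 livers stood above both. The ligation increase was 2.84 ± 0.26, adjusted p = 3.28e-06, the DDC change 0.81 ± 0.26, adjusted p = 0.0825, and the difference 2.03 ± 0.37, adjusted p = 0.0238 (without that library 2.09 ± 0.38, adjusted p = 0.00215). Dbp, a clock output factor, had 74.8 in that library and 9.19, 10.2 and 20.4 in the other BDL28 livers, against 13.4, 51.9, 51.9 and 30.5 in BDL7, and 68.8, 90.4, 77.8 and 34.9 in DDC28 against 7.26, 15.2, 4.98 and 3.54 in DDC7. Every DDC28 liver was above every DDC7 liver, an increase of 3.07 ± 0.61, adjusted p = 0.0113. Its difference was -3.76 ± 0.86, adjusted p = 0.0809, and -4.39 ± 0.68, adjusted p = 0.0016 without that library. Nr1d1, a repressor of Arntl, and Cry1, a core repressor, were chosen after their values were seen and gave -2.22 ± 0.45, adjusted p = 0.00487 and 2.15 ± 0.64, adjusted p = 0.042 without that library. Arntl, the core activator, gave 1.71 ± 0.59, adjusted p = 0.0746 there. Of 19 clock genes, 1 higher and 0 lower differences were called with all libraries. Without that library 4 and 2 were (4.98% and 7.6% of all genes). The hour at which livers were taken is not given in the sources used here, and its part in these changes was not tested.

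Per1 carries an E-box, CACGTG, the site of the clock activators. It was found in 5 of 16 clock genes with a window (31.2%) and in 1072 of 8970 tested genes with a window (12%). Counted by window rather than by gene, it was in 7.15% of all windows. The window is from RefSeq GRCm38.p6, chr11:69098699-69098998, plus strand, with the match in capitals 166 bases before the gene start.
Per1: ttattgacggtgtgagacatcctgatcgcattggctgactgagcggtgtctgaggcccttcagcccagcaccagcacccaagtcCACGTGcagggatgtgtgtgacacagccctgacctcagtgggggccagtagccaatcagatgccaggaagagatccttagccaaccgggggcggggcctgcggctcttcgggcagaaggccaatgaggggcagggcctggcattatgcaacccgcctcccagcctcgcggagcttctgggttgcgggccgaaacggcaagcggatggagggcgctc

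Sulfotransferases, which make bile acids, steroids and thyroid hormone more soluble, mostly rose under ligation. Sult1b1, a thyroid hormone sulfotransferase, had 118 in the library labelled BDL28 replicate 1 and 259, 238 and 192 in the other BDL28 livers, against 57.6, 86.5, 79.8 and 67.9 in BDL7, 133, 118, 176 and 172 in DDC28 and 150.3, 149, 159 and 129 in DDC7. The difference was 1.40 ± 0.29, adjusted p = 0.0447 (without that library 1.63 ± 0.22, adjusted p = 0.000187). Sult2a1, a bile acid sulfotransferase, was at 0 in all BDL7 livers and had 3.94 in that library and 132, 172 and 86.8 in the other BDL28 livers, with 16.5, 29.9, 11.8 and 14.7 in DDC28 and 0, 0, 0 and 0.708 in DDC7. SHAM was at 0 too. The fitted difference, 3.00 ± 0.57, adjusted p = 0.00302 without that library, depends on the added 1 and is no measure of fold, since BDL7 was at 0. Sult1e1, the estrogen sulfotransferase, had 100.3 in that library and 1409, 1285 and 1235 in the other BDL28 livers, against 49.3, 113, 244 and 114 in BDL7, and 184, 207, 416 and 516 in DDC28 against 41.4, 35.96, 45.8 and 17.7 in DDC7. It rose in both, with a difference of -0.52 ± 1.11, adjusted p = 0.831 with all libraries. That fit includes the library at 100.3, far below the other BDL28 livers, so the sign of this difference is not read here. Of 10 tested sulfotransferases, 7 rose and 3 fell under ligation (14.2% and 16.2% of all genes did). On DDC 4 rose and 1 fell (1.91% and 2.64% of all genes did). With all libraries 1 higher and 0 lower differences were called (3 and 0 without that library).

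Genes whose liver level differs between the sexes moved in the same direction in both models. Mup20, a major urinary protein, had 799.8 in the library labelled BDL28 replicate 1 and 176, 361 and 281 in the other BDL28 livers, against 10330, 8563, 3367 and 4508 in BDL7, and 973, 1362, 672 and 803 in DDC28 against 13770, 13940, 16250 and 11360 in DDC7. It fell in both (-4.13 ± 0.43, adjusted p = 0.000111 under ligation, -3.90 ± 0.43, adjusted p = 0.000227 on DDC), and the difference was -0.23 ± 0.61, adjusted p = 0.869. All 21 tested Mup genes fell under ligation and 20 on DDC, and 0 and 0 had a called difference in either fit, though reads of these near-identical genes could be divided among them. Of 17 male-biased genes 0 rose and 12 fell under ligation and 0 rose and 10 fell on DDC. Of 13 female-biased genes 8 rose and 0 fell under ligation and 7 rose and 0 fell on DDC. Over all genes 14.2% rose and 16.2% fell under ligation, and 1.91% rose and 2.64% fell on DDC. In both lists 0 higher and 0 lower differences were called with all libraries, and without that library 2 and 2 in the male-biased and 1 and 1 in the female-biased list. Elovl3, a male-biased fatty acid elongase, had 0 in that library and 1.84, 3.71 and 4.29 in the other BDL28 livers, against 10.9, 12.2, 4.99 and 3.82 in BDL7 and 1518 to 1889 in SHAM. Hsd3b5, a male-biased steroid dehydrogenase, did not pass the filter of the 16 libraries. The sex of the mice is not given in the sources used here.

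Several hepatocyte genes rose between the days of ligation and did not pass the test on DDC. Etnppl, a phospholyase of phosphoethanolamine in hepatocytes, had 469 in the library labelled BDL28 replicate 1 and 460.3, 463 and 540.2 in the other BDL28 livers, against 144, 213, 184 and 218 in BDL7, 399, 419, 531 and 471 in DDC28 and 569.9, 569, 546 and 504 in DDC7. SHAM had 401 to 571. The ligation days were separate, and BDL28 lay in the sham range. The difference was 1.63 ± 0.17, adjusted p = 0.000111 (without that library 1.64 ± 0.18, adjusted p = 2.18e-05), the lowest adjusted p of the higher set.

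Asl, argininosuccinate lyase of the urea cycle, had 303 in the library labelled BDL28 replicate 1 and 1046, 791 and 756 in the other BDL28 livers, against 123, 146, 195 and 203 in BDL7, 272, 298, 499 and 509.8 in DDC28 and 307, 265, 364 and 327 in DDC7. The 3 other BDL28 livers stood above every SHAM liver (199.5 to 279). Its difference was 2.11 ± 0.32, adjusted p = 0.0016 without that library and 1.74 ± 0.46, adjusted p = 0.112 with it. The DDC28 livers stood apart for Asl, replicates 1 and 2 at 272 and 298 and replicates 3 and 4 at 499 and 509.8. Over all genes the chi-square per gene was 2.909 and 2.362 within these pairs and 5.342 to 6.547 between them. A DDC change that did not pass thus averages over livers that differed, and what set them apart was not tested. Of 25 genes of the urea cycle and amino acid catabolism, 0 higher and 0 lower differences were called with all libraries. Without that library 13 and 0 were (4.98% and 7.6% of all genes). The median difference was 0.56 with all libraries and 0.74 without it. Of 13 mitochondrially encoded genes, 8 higher (4.98% of all genes) and 0 lower (7.6%) differences were called without that library, and 0 and 0 with it. Among them mt-Nd5, a subunit of respiratory complex I, gave 0.87 ± 0.15, adjusted p = 0.0016. It had 4277 in that library and 7502, 7859 and 6989 in the other BDL28 livers, against 3462, 3989, 3957 and 3698 in BDL7, 5122, 5776, 7181 and 6094 in DDC28 and 5697, 5471, 5995 and 5093 in DDC7. Of 30 nuclear oxidative phosphorylation genes, 7 higher and 0 lower differences were called without that library, and of 22 hepatocyte markers 8 and 1, with 0 and 0 in each list over all libraries. The sum of the hepatocyte markers was 94537 in that library and 113448 to 121845 in the other BDL28 livers, against 89938 to 109842 in BDL7, and 92640 to 107295 in DDC28 against 91543 to 115544 in DDC7. Glul and Cyp2e1, enzymes of pericentral hepatocytes, gave differences of -0.25 ± 0.29, adjusted p = 0.683 and 0.36 ± 0.40, adjusted p = 0.66, and Glul fell in both models. Stab2, a receptor of sinusoidal endothelium, also fell in both, with a difference of 0.32 ± 0.21, adjusted p = 0.441. Cdkn1a, a cell cycle inhibitor, gave 1.99 ± 0.66, adjusted p = 0.0703 without that library. The part of shifting cell shares in these counts was not tested.

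**Figure D5:**
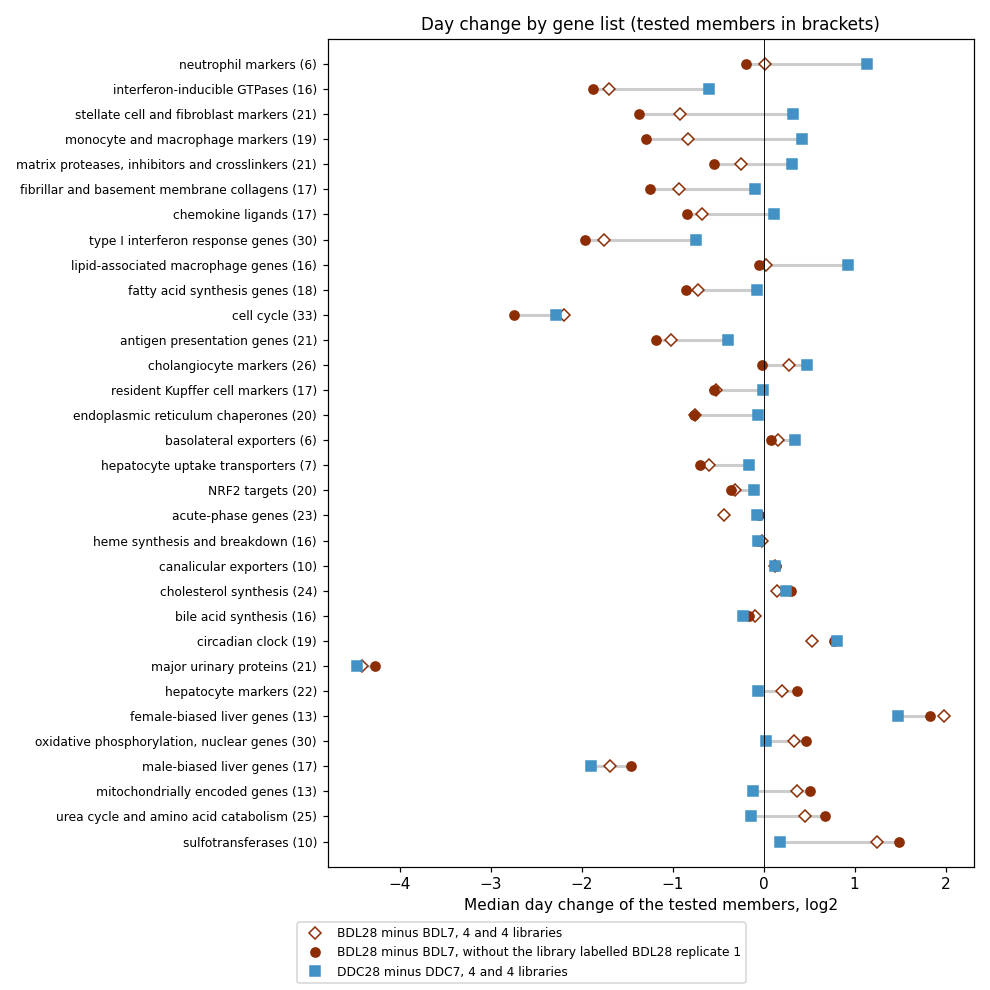
Median day change of the tested members (x axis, log2) of 32 gene lists (y axis, number tested in brackets): white diamonds are BDL28 minus BDL7 with all libraries, brown circles the same without the library labelled BDL28 replicate 1, and blue squares DDC28 minus DDC7. For monocyte and macrophage markers the ligation medians were -0.83 and -1.30, and the DDC median 0.43.

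Other genes with a called difference fell outside these lists. Slc45a3, a sugar transporter, had 129 in the library labelled BDL28 replicate 1 and 242, 223 and 219 in the other BDL28 livers, against 137, 122, 113 and 135 in BDL7, and 139.8, 109, 100.4 and 149.7 in DDC28 against 208, 232, 241 and 222 in DDC7, with opposite turns and a difference of 1.51 ± 0.24, adjusted p = 0.0113. Gpx3, a secreted selenium peroxidase, was late on DDC: it had 63.1, 38.5, 67.8 and 39.5 in DDC28 and 21.1, 15.98, 13.9 and 23.4 in DDC7, and 39.4 in that library and 37.7, 44.6 and 27.9 in the other BDL28 livers, against 46.8, 30.5, 42.9 and 41.2 in BDL7, a difference of -1.53 ± 0.32, adjusted p = 0.0447. Ninj1, which ruptures the membrane of dying cells, had 76.7 in that library and 67.99, 106 and 116 in the other BDL28 livers, against 236, 232, 197 and 212 in BDL7, 130.5, 199, 223 and 213 in DDC28 and 216, 153, 199 and 143 in DDC7, a difference of -1.38 ± 0.26, adjusted p = 0.0341. Foxo1, a transcription factor of fasting metabolism, gave 1.08 ± 0.23, adjusted p = 0.0472, Tsc22d3, a glucocorticoid-induced gene, 1.06 ± 0.19, adjusted p = 0.0238, and Sertad3 -1.54 ± 0.33, adjusted p = 0.0472. Lrrc17, a secreted leucine-rich repeat protein, had 41.3 in that library and 11.03, 19.5 and 18.2 in the other BDL28 livers, against 91.9, 54.9, 63.8 and 50.4 in BDL7, and 85.3, 70.5, 56.97 and 49.6 in DDC28 against 33.4, 40.8, 31.9 and 42.5 in DDC7. Its ligation days were separate downward and its DDC days upward, with a difference of -2.39 ± 0.41, adjusted p = 0.0217. The other named calls were Yod1, a deubiquitinase (1.20 ± 0.26, adjusted p = 0.0472), the centrosomal Cntrl (1.12 ± 0.20, adjusted p = 0.0217), the noncoding host gene Snhg1 (1.11 ± 0.24, adjusted p = 0.0472) and Scamp5, a vesicle membrane protein (-1.15 ± 0.24, adjusted p = 0.0469).

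The responses were then sorted by whether they resolved or persisted. A shared day 7 response was called against both controls with 1 sign and at least 1 in size (log2) in both, and 1190 genes had one, 971 higher and 219 lower. Such a response counted as resolved where less than 50% of the day 7 effect was left at day 28, and as kept where at least 50% was left and the day 28 effect was called. With all 16 libraries, 2 genes, Saa2 and Elf3, were resolved under ligation and kept on DDC with a called difference, and 0 were resolved on DDC and kept under ligation. Without the library labelled BDL28 replicate 1 these were 183 and 2. By values alone, with no test, 178 genes had under 50% left after ligation and at least 50% on DDC, and 13 the other way round. Without that library these were 307 and 11. These are descriptions, since day 7 values enter both the choice and the day change. Elf3 counted as resolved while still above SHAM, by 3.752 (log2) in BDL7 and 1.744 in BDL28 with all libraries.

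Of the 183 genes, out of 11960 tested, 170 were higher and 13 lower than controls at day 7. They held Saa2 and 6 of the 19 monocyte and macrophage markers tested (Ccr2, Plac8, Fcer1g, Fcgr1, Tyrobp and Aif1). Of 17 collagens they held 5, among them Col1a2 and Col3a1, and of 21 stellate and fibroblast markers 5, among them Lum, Postn and Sparc. Of 33 cell cycle genes 3 were in the class, Ccnd1, Mcm2 and Mcm3, and the median change of that list on DDC was -2.285. Mcm4, Cdt1, Dtl and Pclaf, which the list does not hold, were in the class too. Genes kept in both numbered 859 with all libraries and 762 without that library, and genes resolved in both numbered 99 and 104. Late genes, called against the control and at least 1 in size (log2) at day 28 but neither at day 7, with a called difference, numbered 7 under ligation and 3 on DDC with all libraries, and 181 and 42 without that library. Genes with opposite turns, in which both day changes were called with opposite signs, numbered 7 with all libraries and 46 without that library. With all libraries the late ligation genes were Per1, Pdia4, Gpam, Ccnd3, Snhg1 and 2 predicted genes, the late DDC genes Gpx3, Sertad3 and Scamp5, and the opposite turns Il1a, Lcn2, Scd2, Zfp703, Slc45a3, Dact1 and Cyp8b1.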

How the data were processed

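Values are the deposited normalized counts, a signal of whole reads divided by 1 factor per library. The submitters' processing notes name STAR 2.7.9a, RSEM 1.3.1, UMI-tools 1.1.1, DESeq2 and Trim Galore, with the mouse build GRCm39. Their order, and whether counting used strand, is not given in the sources used here; genes that overlap or share near-identical copies are uncertain. Every library was whole multiples of 1 step (100% of values within 0.001), which gave back the reads: 2378491 to 3450091 in the 16 libraries and 2081093 to 2912971 in the 8 controls. Of 29546 gene IDs, 29121 were given a symbol from the GRCm38 name table.

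From the deposited values, log2(value + 1) was fitted by limma 3.58.1 in R 4.3.3 with trended, robust empirical Bayes, 1 coefficient per group and no block. Calls took a 2-sided p, adjusted by Benjamini-Hochberg over all 11960 genes tested, of under 0.05, and each log2 difference is given ± its standard error with n = 4 livers per group. Day changes used the 16 libraries, and effects against SHAM and CTLD used 24. Fold changes on this scale understate low genes. The p-values measure the spread between these livers, which the labels list as separate samples without saying more. No pair of libraries agreed within sampling noise (lowest chi-square per gene 2.30). The fitting code was tested on simulated data.

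Members, gene lists and tests were chosen with earlier results of these data known. Genes were named as 55 anchors chosen by role, up to 10 highest and 10 lowest called differences whose highest group averaged at least 50, up to 4 per class, and up to 3 of lowest adjusted p per list described; 1 anchor is not reported here. The rule was applied with all libraries and, after the data were seen, without the library labelled BDL28 replicate 1. Alternatives were edgeR 4.0.16 and DESeq2 1.42.0 on recovered reads, other scalings, filters, pseudocounts, blocks and leaving out each library. Promoters come from RefSeq tables (GRCm38.p6), matched by symbol, and no coordinates of the deposited build were used.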

Additional observations from a re-analysis of the deposited data

Results flagged for a closer look

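Of 1014 groups of 4 livers examined over 169 named genes, 63 (6.21%) held 1 liver whose gap to the nearest other exceeded Dixon's 95% critical share of the range of its group, on the log2 scale, and chance gives about 1 in 20. The library labelled BDL28 replicate 1 held 18 of the 63, CTLD replicate 3 held 7, and BDL7 replicate 2, DDC7 replicate 4 and SHAM replicate 1 held 4 each. Some of the 169 genes were named from the fit without the library labelled BDL28 replicate 1. Its count, and the total set beside 1 in 20, are thus partly set by that choice. The library labelled BDL28 replicate 1 had Mki67 35.4, Top2a 69.8, Spp1 2118, Tgtp1 22.6, Slc10a1 287, Sult1e1 100.3, Slc45a3 129, Cyp4a12a 0, Cyp4a12b 9.84, Clec2h 34.4, Nnmt 47.2, Fcer1g 139.7, Baat 516, Slco1a4 446, Ass1 2019, Cux2 34.4, mt-Cytb 10920 and Col14a1 197 normalized counts. BDL28 replicate 2 had Cyp2u1 58.8 normalized counts. BDL28 replicate 4 had Etnppl 540.2 and Yod1 110.4 normalized counts. BDL7 replicate 1 had Fcer1g 180.5 normalized counts. BDL7 replicate 2 had Top2a 228, Gpnmb 75.3, Cxcl5 64.1 and Hsd3b5 1.02 normalized counts. BDL7 replicate 3 had Lrat 92.7 normalized counts. BDL7 replicate 4 had Hmox1 234 and Timp4 0.763 normalized counts. DDC28 replicate 1 had Elf3 28.7 normalized counts. DDC28 replicate 2 had Mup6 0 normalized counts. DDC28 replicate 3 had G6pdx 13.6 normalized counts. DDC28 replicate 4 had Gpnmb 546, H2-DMa 16.5 and Mup5 1.84 normalized counts.

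DDC7 replicate 1 had Spp1 929 normalized counts. DDC7 replicate 3 had C1qa 284 normalized counts. DDC7 replicate 4 had Tgtp1 26.9, Sult2a1 0.708, Srebf1 105 and Ndufa1 632 normalized counts. SHAM replicate 1 had Timp1 1.38, Clec4f 164, Tgtp1 0 and Mmp12 2.752 normalized counts. SHAM replicate 2 had Fasn 1113 normalized counts. SHAM replicate 3 had Slco1a1 1591, Abcc4 17.9 and Sprr1a 1.05 normalized counts. SHAM replicate 4 had Glul 2607 and Hal 793 normalized counts. CTLD replicate 1 had Lcn2 1.01 and Lrrc17 9.12 normalized counts. CTLD replicate 2 had Tgm2 261 normalized counts. CTLD replicate 3 had Cxcl5 0, Gsta1 0, Sult2a1 2.61, Gpam 829.9, Sprr1a 1.305, Nlrp12 83.5 and Fstl1 6.52 normalized counts. CTLD replicate 4 had Sox9 132 and C1qc 146 normalized counts.

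The day change under ligation minus the day change on DDC passed the test in limma for 25 of the named genes, a test of the difference between the models itself. On the log2 scale the higher differences were Cyp8b1 2.86, Per1 2.03, Etnppl 1.63, Slc45a3 1.51, Sult1b1 1.40, Yod1 1.20, Cntrl 1.12, Snhg1 1.11, Foxo1 1.08 and Tsc22d3 1.06. The lower ones were Saa2 -3.82, Saa1 -2.90, Lcn2 -2.48, Lrrc17 -2.39, Elf3 -2.07, Scd2 -1.72, Sertad3 -1.54, Gpx3 -1.53, Pdia4 -1.47, Ninj1 -1.38, Gpam -1.33, Scamp5 -1.15, Fasn -1.13, Srebf1 -1.02 and Pdia3 -0.87. No cause of these values was tested.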

How the results depend on the processing

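With the spread taken from 36 libraries the difference of day changes was called higher for 76 and lower for 108 genes, from the 24 libraries (added after seeing the data) for 36 and 69, by DESeq2 for 153 and 156, and by limma without trend and robust options for 5 and 10. Total-count scaling gave 13 higher differences. It also gave 4857 higher and 838 lower genes in BDL7 against SHAM, 4812 and 1489 in BDL28, 5572 and 1056 in DDC7 against CTLD and 5826 and 1395 in DDC28. A filter at 50 gave 210 lower DDC changes. The class resolved under ligation and kept on DDC held 4 genes with total-count scaling, 1 with the line at 33% and 5 with a size of 0.5. The reverse class held 1 with the line at 67%. Late ligation genes numbered 3 with total-count scaling and 13 at a size of 0.5, late DDC genes 0 and 5, and shared day 7 responses 2367 at 0.5. The balance of higher and lower calls turned with the scaling in some comparisons. After quantile normalization the ligation change had 1889 higher and 1749 lower genes, as deposited 1699 and 1932. BDL7 against SHAM then had 2176 and 2213, as deposited 2563 and 2183, and DDC7 against CTLD 2656 and 2688, as deposited 3175 and 2531. The cause of these shifts was not tested.

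The replicate numbers were tried as pairs with a block. By the number in the descriptions, deviations correlated above 0.1 in 2 of 4 BDL28 and BDL7 pairs. By the number in the titles all 3 BDL28 and DDC28 pairs did (0.4256, 0.1985 and 0.2095), each the best match, of which the first holds the library labelled BDL28 replicate 1, and the 2 BDL28 and BDL7 pairs did not (-0.07362 and -0.0257). Neither number thus paired all 4 groups, and the labels do not say what a number marks. With the replicate block the difference was called higher for 37 and lower for 62 genes, the classes held 9 resolved under ligation, 15 late under ligation and 12 opposite turns. With the block by title number it was 3 and 5, with 7 of 25 named calls left, the ligation change 625 and 770, and the DDC change 119 and 202.

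Without the library labelled BDL28 replicate 1 (combinations added after seeing the data), the difference was higher and lower for 373 and 1219 genes with total-count scaling, 586 and 808 with quantile normalization, 686 and 906 with edgeR, and 451 and 767 with the block. The DDC change was 480 higher with total-count scaling, 529 and 521 with quantile normalization, 503 and 534 with edgeR, and 438 higher with the block. Total-count scaling then gave 3097 lower ligation changes, 5063 and 888 in BDL7, 1677 lower in BDL28, 5716 and 1118 in DDC7 and 5971 and 1455 in DDC28. In the order total-count, quantile and block, the classes held 275, 126 and 150 resolved under ligation, 2, 1 and 2 resolved on DDC, 165, 181 and 140 late under ligation, 38, 39 and 39 late on DDC, and 47, 40 and 47 opposite turns. Without BDL28 replicate 4 as well, ligation changes were 2318 higher and 2674 lower, and 216 genes were resolved under ligation.

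Over fits that leave out 1 liver, or that library and 1 more, higher differences ran from 2 to 928 and lower from 6 to 1245. Ligation changes ran from 1095 to 2318 and 1284 to 2674, and DDC changes from 87 to 552 and 142 to 591. Effects against controls ran from 2266 to 2743 higher and 1884 to 2401 lower in BDL7, 2400 to 3053 and 2291 to 2665 in BDL28, 2779 to 3386 and 2216 to 2709 in DDC7, and 3257 to 3717 and 2610 to 2983 in DDC28. Classes ran from 1 to 216 resolved under ligation, 0 to 2 resolved on DDC, 0 to 349 late under ligation, 0 to 61 late on DDC, 3 to 65 opposite turns and 1133 to 1225 shared day 7 responses. Of the 52 called differences, 40 exceeded 1 on the log2 scale, and the smallest detectable size was not computed.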

Other observations

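Of 17 S100 protein and annexin genes, whose products bind calcium, 0 differences of day changes were called with all libraries. Without the library labelled BDL28 replicate 1, 0 were higher and 9 lower (4.98% and 7.6% of all genes were). Of 11 vascular endothelial markers, 0 were higher and 4 lower without that library. Of 16 periportal hepatocyte genes, 8 were higher and 0 lower without it, and with it 0 were called.

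Fabp1, the liver fatty acid-binding protein, had 586 normalized counts in that library and 22.1, 48.3 and 86.8 in the other BDL28 livers, against 1172, 1956, 797 and 1053 in BDL7, with 729.8, 816, 248 and 321 in DDC28 and 1137, 1071, 1217 and 1101 in DDC7. The other 3 BDL28 livers lay below every liver of the other 3 groups, and SHAM livers had 7454 to 8880. Its difference without that library was -3.39 ± 0.68, adjusted p = 0.01 in limma. With all libraries it was -2.48 ± 1.09, adjusted p = 0.252. Cxcl13, a B-cell chemokine, had 0.984 in that library and 189, 54.8 and 53.6 in the other BDL28 livers, against 3.34, 6.10, 8.97 and 3.05 in BDL7, with 2.15, 0.712, 2.71 and 0 in DDC28 and 9.44, 2.40, 75.7 and 4.25 in DDC7. The 3 BDL28 livers lay above every BDL7 liver, and 1 DDC7 liver stood apart from the other 3. Its difference without that library was 6.18 ± 1.19, adjusted p = 0.00534 in limma, and 4.83 ± 1.67, adjusted p = 0.17 with it. Timp4, an inhibitor of matrix proteases, had 4.92 in that library and 251, 119.8 and 52.5 in the other BDL28 livers, against 0, 0, 0 and 0.763 in BDL7, with 11.5, 2.85, 15.4 and 18.4 in DDC28 and 0.726, 0, 0 and 2.12 in DDC7. Its difference without that library was 3.81 ± 0.83, adjusted p = 0.00651 in limma, and 2.73 ± 1.21, adjusted p = 0.244 with it, and with BDL7 livers near 0 its size depends on the pseudocount of 1.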
